A study of Homo sapiens with 9 samples.

Results

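The comparison described here sets MDA-MB-231 cells that carry Coco hairpin shco2 against cells of the same line that carry a scramble hairpin. It was chosen by the sample titles alone and takes 6 of the 9 arrays of the series, 3 labelled shRNA #2 targeting Coco and 3 labelled scramble shRNA. MDA-MB-231 is a human triple-negative breast cancer line with a mesenchymal, basal-like profile. The hairpins had been delivered with the lentiviral pLKO vector and cells kept as stable lines, grown in DMEM with 10% fetal bovine serum. Both groups thus carry an integrated vector and a hairpin, and they differ in the hairpin (shco2 or scramble). Whether a line is a pool or a clone is not given in the sources used here. The other 3 arrays carry a second Coco hairpin, shco4, and enter the fit only through the shared estimate of spread and a test of the difference between the hairpins. Biotin-labelled cRNA had been made from 200 ng of total RNA. The labels call the replicates biological but do not say whether they came from separate cultures, so the p-values measure the spread between these arrays.

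Coco is the product of DAND5, a secreted protein of the Cerberus and DAN family that binds BMP, Nodal and activin ligands outside the cell and keeps them from their receptors. BMP ligands signal through serine/threonine kinase receptors to SMAD1, SMAD5 and SMAD9, and the ID genes and the inhibitory SMADs are their usual early targets. Activin, Nodal and TGF-beta signal to SMAD2 and SMAD3. In breast cancer cells Coco is known for its part in the outgrowth of lung metastases. The array annotation names no probe set for DAND5, and the knockdown itself was not analysed here.

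All 6 arrays had a similar scale, with a median intensity of 123 to 129 and 22.3% to 24.6% of probe sets at or under the floor of 16 that was set before taking log2. The correlation over probe sets (which share arrays and are no replicates) ranged from 0.988 to 0.992 between arrays of 1 group and from 0.971 to 0.980 between the groups. Markers of basal MDA-MB-231 cells were bright in both groups, with VIM at a mean log2 intensity of 13.6 in scramble and 13.3 with shco2 and CD44 at 12.3 and 11.8. In bulk RNA, fewer cells of a kind and less RNA per cell cannot be told apart. Of 16 luminal markers 10 had a mean log2 intensity of 7 or more in either group, while ESR1 (4.66 and 4.93), PGR and FOXA1 lay at or near the floor, which is 4 on this scale. The leukocyte marker PTPRC (4.25 and 4.13) and the endothelial markers VWF and TEK lay there as well. Of 13 leukocyte markers, 1 of them bright, MS4A1 rose from the floor on all scramble arrays to a mean of 4.66 (adjusted p = 0.0453) and CSF1R (-1.11 ± 0.27) and LAPTM5 fell. Leukocyte marker counts became 0 up without any 1 scramble or shco2 array or shco4 array 1, 1 down without any 1 scramble array or shco2 array 2 or shco4 array 3, 0 up under quantile normalization or with the floor at 64 or without dim probe sets and 1 down without dim probe sets or on the 6 arrays alone. Of 12 fibroblast markers, 2 of them bright, COL1A2, a collagen chain, fell (-2.36 ± 0.24) and 0 rose in limma (0 at an unadjusted p under 0.05). Of 10 endothelial markers 0 passed in limma (0 at an unadjusted p under 0.05).

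Of 22215 probe sets, 4589 (20.7%) differed between shco2 and scramble in limma at a Benjamini-Hochberg adjusted p under 0.05, 2379 up (10.7%) and 2210 down (9.95%). Over the 11963 genes with a named probe set, taking the brightest probe set of each, 1595 rose (13.3%) and 1310 fell (11%). The large changes were mostly decreases. At least 2-fold changes were seen in 199 genes that rose (1.66%) and 394 that fell (3.29%), or among probe sets 1.39% and 3.2%, and changes of over 4-fold in 6 genes that rose and 35 that fell. Bright genes are called more often: of the 6897 genes with a mean log2 intensity of 7 or more in either group, 21.7% rose and 17.1% fell. These shares serve below as the background for counts within gene groups. A group count that moved by over 1.5 times is given with the group, by the 1 array left out or the other setting used (a scaling, a floor, a filter on dim or floored probe sets, a trended variance, or a fit to the 6 arrays alone). Of 645 genes with at least 2 called probe sets, 615 had all of them in the same direction and 30 had called probe sets in opposite directions. Of the 183 called genes described, 83 had several probe sets, with all of them called in the same direction in 41 and part of them in 42, and 0 had a probe set called the opposite way. Not all of the 42 are marked where their values are given. Unmarked genes with 1 of 2 probe sets called include TGFBR2, FST, DUSP7, EFNA5, EFNB2, DVL3, RELA, ACSL1, PSMD12 and XRCC5. HSPA4, given below with the chaperones, had calls both ways and is not counted among the genes described. Among probe sets, the shco2 and scramble arrays did not overlap in 35.8%.

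**Figure D1:**
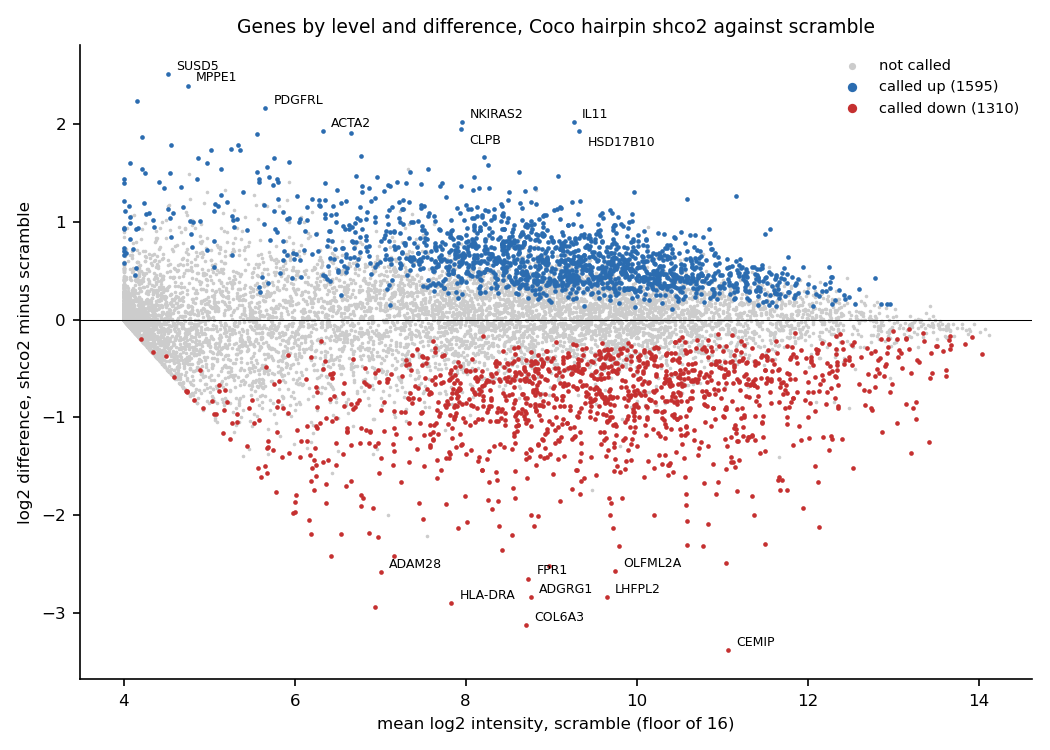
Each point is a gene at its brightest probe set, with the mean log2 intensity in scramble on the x axis and the log2 difference of shco2 minus scramble on the y axis (3 arrays per group). Blue points are the 1595 genes that rose and red points the 1310 that fell at an adjusted p under 0.05. Named genes are those with the largest changes under the naming rule, and the downward side reaches further than the upward side.

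Genes are named by the size and precision of their change, among called genes whose scramble and shco2 arrays did not overlap (the full naming rule stands with the processing). Among those with the largest increases, the genes described had unrelated functions. CLPB, a mitochondrial protein disaggregase, had intensities of 285, 196 and 270.0 with scramble and 1079, 929 and 867 with shco2. It rose by 1.95 ± 0.18 on the log2 scale, or 3.86-fold (SE, n = 3 per group, adjusted p = 0.000976). NKIRAS2, a Ras-like protein that interacts with inhibitors of NF-kB, read 278, 239.7 and 229 with scramble and 987, 1053 and 986 with shco2, a rise of 2.02 ± 0.09 (adjusted p = 0.000161). For both genes every shco2 array lay far above every scramble array. M6PR, the cation-dependent receptor that carries mannose 6-phosphate tagged enzymes to lysosomes, read 324, 315 and 284 with scramble and 902, 949.9 and 906 with shco2 and rose by 1.58 ± 0.10 (adjusted p = 0.000338). ZNF473, a zinc finger protein that takes part in histone pre-mRNA processing, read 386, 239.5 and 281 with scramble and 1099, 833 and 907 with shco2, a rise of 1.67 ± 0.19 at this probe set, while its other probe set did not pass. The arrays of each group lay close together in M6PR and spread more in ZNF473, and in neither gene did the groups overlap.

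Several dim genes rose. SUSD5, a sushi domain protein, read 11.7, 31.3 and 23.9 with scramble and 115, 141 and 136 with shco2, so that all 3 scramble arrays were dim. PDGFRL, a PDGF receptor-like protein, read 46.2, 50.8 and 54.3 with scramble and 215, 239 and 224 with shco2, and LGALSL, a galectin-related protein, read 101, 114 and 113 with scramble and 377, 332 and 335 with shco2. Their increases on the floored log2 scale were 2.51 ± 0.23, 2.16 ± 0.33 and 1.67 ± 0.20 (adjusted p = 0.00104, 0.00581 and 0.00241). When the floor was set at 64 they became 1.02, 1.82 and 1.67, so the first 2 sizes depend on the floor. HOXC6, a homeobox transcription factor, read 44.2, 60.6 and 50.4 with scramble and 143, 189 and 129 with shco2 and rose by 1.56 ± 0.20. PLCXD1, a phospholipase C-like protein, read 217, 181 and 170.5 with scramble and 597, 527 and 529 with shco2 and rose by 1.54 ± 0.28 (adjusted p = 0.0108). In the shco4 line PLCXD1 lay -1.41 from scramble, and the difference between the hairpins was -2.95 (adjusted p = 0.000528).

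Of the 40 genes taken for the largest changes, 34 kept their call with each of the 9 arrays left out in turn, 16 of the 20 that rose and 18 of the 20 that fell. IL11, an IL-6 family cytokine, read 632, 911 and 404 with scramble and 2549, 3129 and 1952 with shco2 and rose by 2.02 ± 0.53 (adjusted p = 0.0408), and its call was lost in 7 of the 9 leave-one-array-out fits, with the highest value without shco2 replicate 2 (adjusted p = 0.120). RAB3A, DHRS2, REXO5, FPR1 and TGFBI also lost their calls, with adjusted p up to 0.0765 (without scramble replicate 2), 0.0553 (without shco2 replicate 3), 0.0824 (without scramble replicate 2), 0.0685 (without shco2 replicate 1) and 0.0654 (without scramble replicate 1).

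**Figure D2:**
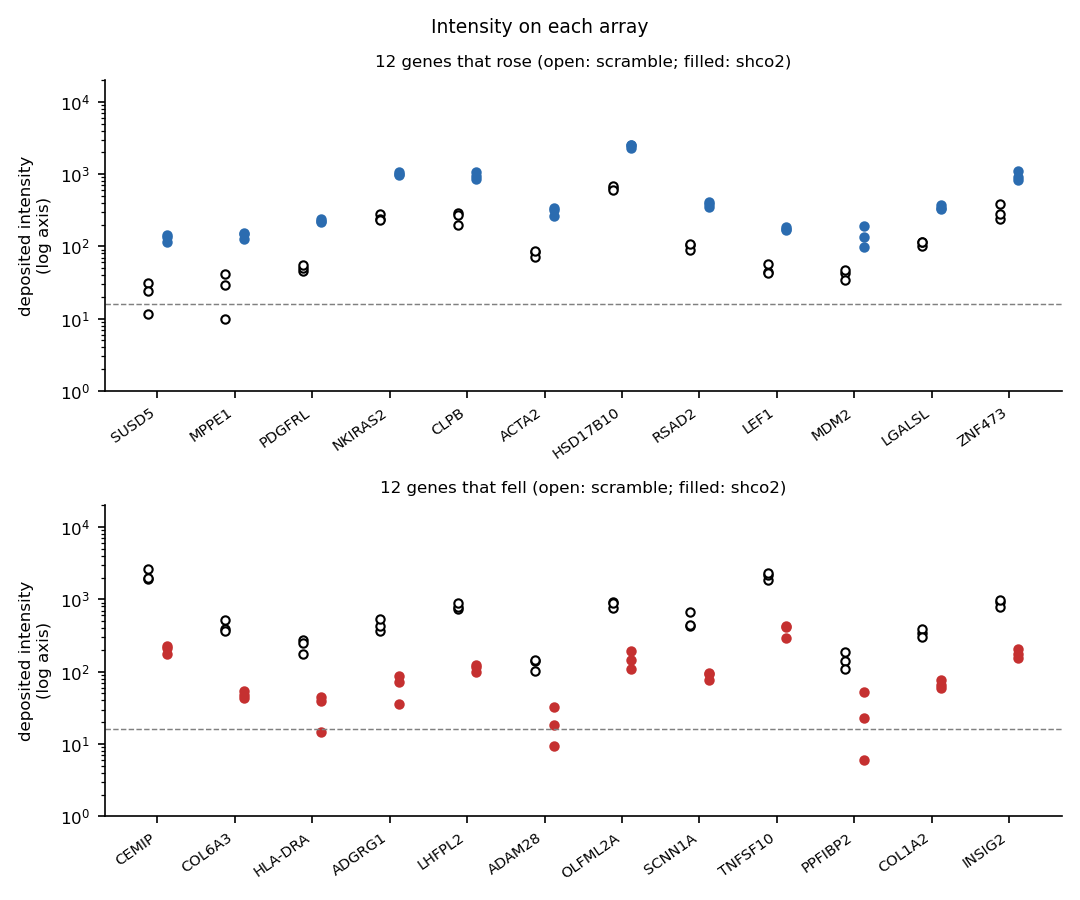
Deposited intensity on each array, on a log axis, for 12 genes that rose and 12 that fell, chosen as the largest changes that kept their call with every array left out in turn. Open circles are the 3 scramble arrays, filled circles the 3 shco2 arrays, and the dashed line is the floor of 16. In all 24 genes the groups do not overlap, as the naming rule required.

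Among the genes that fell, CEMIP, a hyaluronan-binding protein, read 2624, 1901 and 1973 with scramble and 178, 226 and 215 with shco2 and fell by 3.38 ± 0.15, the most of the genes under the naming rule (adjusted p = 0.000161). TNFSF10, the death ligand TRAIL, read 1873, 2173 and 2341 with scramble and 296, 429.5 and 419.8 with shco2 and fell by 2.49 ± 0.21 (adjusted p = 0.000865), at all 3 of its probe sets. LHFPL2, a tetraspan membrane protein, read 738, 783 and 898 with scramble and 123, 115 and 100.4 with shco2 and fell by 2.84 ± 0.10 (adjusted p = 9.49e-05). In these 3 genes every shco2 array lay far below every scramble array, and with shco4 CEMIP lay -3.37 from scramble while TNFSF10 and LHFPL2 lay 0.07 and 0.02 from it. ADGRG1, an adhesion G protein-coupled receptor, read 364, 424 and 531 with scramble and 35.9, 71.5 and 87.0 with shco2 and fell by 2.84 ± 0.37, with both probe sets called. SCNN1A, the alpha subunit of the epithelial sodium channel, read 427, 439 and 671 with scramble and 76.1, 95.4 and 91.9 with shco2 and fell by 2.52 ± 0.23, with 1 of 3 probe sets called. ADAM28, a membrane-anchored metalloprotease, read 142, 145 and 103 with scramble and 9.33, 18.5 and 33.0 with shco2, so that the shco2 arrays lay near the floor and the log2 difference of -2.59 ± 0.34 is limited by it (-1.004 with the floor at 64).

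Other single genes with large decreases had unrelated functions. INSIG2, an endoplasmic reticulum protein that holds back SREBP processing when sterols are abundant, read 913, 779 and 975 with scramble and 155, 175 and 205 with shco2 and fell by 2.32 ± 0.13 (adjusted p = 0.000212). CTDSPL, a phosphatase of RNA polymerase II and RB, read 1645, 1369 and 1609 with scramble and 306, 288 and 339 with shco2 and fell by 2.31 ± 0.12, with 4 of its 5 probe sets called. FYCO1, an adaptor that moves autophagosomes along microtubules, read 369.7, 341 and 411 with scramble and 67.02, 83.3 and 95.4 with shco2 and fell by 2.20 ± 0.17. The 3 shco2 arrays of each lay below all scramble arrays. MXI1, a partner of MAX that opposes MYC, read 622, 847 and 1150.0 with scramble and 184, 213 and 182 with shco2 and fell by 2.14 ± 0.21 (adjusted p = 0.00131). MYC itself read 2250.2, 2088 and 2293 with scramble and 2439.9, 1857 and 2319 with shco2 and differed by -0.01 ± 0.16, which did not pass. PPFIBP2, a liprin, read 143, 109 and 189 with scramble and 5.92, 52.1 and 23.2 with shco2 and fell by 2.42 ± 0.44 (adjusted p = 0.0103), or a log2 difference of -1.16 with the floor at 64.

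Some smaller changes had among the smallest p-values in limma. The genes were picked by that value, a choice that favours small standard errors. LITAF, a late endosomal membrane protein, read 4082, 4102 and 3695 with scramble and 1048, 1088 and 974 with shco2 and fell by 1.93 ± 0.06 (adjusted p = 6.76e-05), at both probe sets. STX6, a SNARE of the trans-Golgi network, read 876, 843 and 1010.1 with scramble and 256, 248 and 265 with shco2 and fell by 1.82 ± 0.07 (adjusted p = 9.49e-05), with 2 of 3 probe sets called. PRKAR1A, a regulatory subunit of protein kinase A, fell by 1.23 ± 0.05 at its brightest probe set, with all 3 called. Smaller still were HECTD3, a ubiquitin ligase (-0.86 ± 0.03), and the membrane-bending protein BIN1, called at all 5 probe sets (-0.997 ± 0.04 at the brightest). On the upward side SS18, a subunit of BAF chromatin remodelling complexes, was called at all 4 probe sets and rose by 0.62 ± 0.02 (adjusted p = 8.94e-05). RPP38, a subunit of RNase P, rose by 0.85 ± 0.03, GGCT, a gamma-glutamyl cyclotransferase, by 0.93 ± 0.04, and RAD51C, a recombination protein, by 0.84 ± 0.04 at 1 of 2 probe sets. The difference of shco4 minus shco2 was 2.65 for STX6 and -1.47 for GGCT (adjusted p = 1.82e-05 and 2.29e-05).

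Genes of the pathway that Coco acts on were not called more often than the background, though single members changed. Of 37 genes for BMP, activin, Nodal and TGF-beta ligands, receptors, antagonists and SMADs, 2 rose (5.41%) and 4 fell (10.8%). Over all genes 13.3% rose and 11% fell. The median log2 difference of the group was 0.00, as over all genes (0.00). The ligand BMP4 read 2893, 2527 and 2538 with scramble and 573, 732 and 692 with shco2 and fell by 2.00 ± 0.11 (adjusted p = 0.000212). The transducer SMAD3 fell by 0.90 ± 0.11 and the receptor TGFBR2 by 0.66 ± 0.09. FST, follistatin, an activin antagonist, fell by 0.63 ± 0.15 (adjusted p = 0.0297). Its call was lost in 5 of the 9 leave-one-array-out fits, most of all without scramble replicate 1 (adjusted p = 0.0848). The receptors that rose were ACVR2B, a type II receptor for activin and BMP (0.91 ± 0.15), and ACVR1, a type I BMP receptor (0.54 ± 0.13). The ACVR1 call was lost in 4 of the 9 leave-one-array-out fits, most of all without shco2 replicate 2 (adjusted p = 0.0857). Pathway counts became 1 up without scramble array 1 or 2 or shco2 array 3.

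Among 25 response genes of BMP and TGF-beta, 0 rose in limma (0 at an unadjusted p under 0.05) and 6 fell (24%), with a median of -0.42. Response gene counts became 1 up without scramble array 2 or 3. The usual early BMP targets were not called in the main fit. ID1, an inhibitor of differentiation, read 5742, 4762 and 3101 with scramble and 2517, 3088 and 1906 with shco2, and the highest shco2 array lay just below the lowest scramble array (-0.84 ± 0.31, adjusted p = 0.115). It passed with dim probe sets left out of the fit (adjusted p = 0.0291) and with a trended and robust variance (adjusted p = 0.0347). With the replicate number as a block in limma, ID1 passed as well (adjusted p = 0.0158). ID2 (-0.42 ± 0.41) and ID3 (0.23 ± 0.47) overlapped between the groups. The inhibitory SMAD6 differed by -0.47 ± 0.19 and SMAD7 by -0.47 ± 0.21, and the decoy receptor BAMBI by 0.08 ± 0.12; these 3 did not pass the test. SMAD7 passed without shco2 array 2 (-0.68, adjusted p = 0.0401). Among the members that fell were TIMP3, an inhibitor of metalloproteinases (-1.51 ± 0.12), IGFBP7, which binds IGF (-1.06 ± 0.13), the transcriptional regulators TGIF1 (-0.61 ± 0.07) and TSC22D1 (-0.61 ± 0.11), and TGFBI.

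Growth factor signalling genes fell more often than they rose. Of 29 genes induced by ERK signalling or restraining it, 10 fell (34.5%) and 1, DUSP1, rose. DUSP1, a MAP kinase phosphatase, read 849, 1139 and 1034 with scramble and 2307, 2779 and 2369 with shco2 and rose by 1.31 ± 0.21 (adjusted p = 0.00654). The MAP kinase phosphatases DUSP4 and DUSP7 fell by 0.98 ± 0.09 and 0.88 ± 0.11. SPRY2, a Sprouty inhibitor of receptor signalling, fell by 0.56 ± 0.07. ETV1, an ETS transcription factor, read 243, 261 and 451 with scramble and 70.9, 93.4 and 92.5 with shco2 and fell by 1.85 ± 0.27, at all 5 of its probe sets. ERK gene counts became 2 up without scramble array 3, 6 down without shco2 array 1 or 2 and 2 up without dim probe sets. Of 12 ERBB receptors and ligands, 3 fell and 1 rose. EGFR fell by 0.92 ± 0.10 (2 of 6 probe sets called), its ligand TGFA by 1.19 ± 0.13 (1 of 3) and the receptor inhibitor LRIG1 by 0.94 ± 0.17. The ligand EREG rose by 0.90 ± 0.23 (adjusted p = 0.0364), a call that ended with 7 of the 9 arrays left out, most of all without scramble replicate 1 (adjusted p = 0.103). ERBB gene counts became 0 up without scramble array 1 or 2 or shco2 array 2 or any 1 shco4 array, 5 down without shco4 array 1, 0 up on the 6 arrays alone and 5 down without dim probe sets or on the 6 arrays alone.

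Guidance receptors and ligands fell more often than they rose. Of 40 semaphorins, plexins, neuropilins and other guidance genes, 11 fell (27.5%) and 2 rose, with 12 of the 40 at a mean log2 intensity of 7 or more. NRP1, a co-receptor of semaphorins and VEGF, read 1554, 1575 and 1764 with scramble and 675, 724 and 675 with shco2 and fell by 1.24 ± 0.06 (adjusted p = 0.000174). PLXNA1, a semaphorin receptor, read 1692, 1582 and 1917 with scramble and 624, 807 and 755 with shco2 and fell by 1.25 ± 0.13, and the ligand SEMA4D fell by 1.28 ± 0.14. The difference of shco4 minus shco2 in PLXNA1 was 2.22 (adjusted p = 0.000111). Guidance gene counts became 1 up without any 1 scramble array or shco2 array 2, 1 up without dim probe sets and 7 down without dim probe sets. Of 18 Eph receptors and ephrins, 0 rose (1 at an unadjusted p under 0.05) and 2 fell, the ligands EFNA5 (-1.73 ± 0.15) and EFNB2 (-0.51 ± 0.08).

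Of 34 Wnt pathway genes, 7 rose (20.6%) and 3 fell (8.82%). LEF1, a transcription factor at the end of the pathway, read 44.2, 56.4 and 42.3 with scramble and 176, 168 and 185 with shco2 and rose by 1.90 ± 0.22 (adjusted p = 0.00220), with 1 of 3 probe sets called. The ligand WNT5B rose by 0.37 ± 0.04, while the receptor FZD7 fell by 1.13 ± 0.12 and the adaptor DVL3 by 0.68 ± 0.08. Of 20 Notch pathway genes, 3 rose and 4 fell. The DNA-binding partner of Notch, RBPJ, fell by 1.06 ± 0.04 and the receptor NOTCH2 by 0.52 ± 0.07. The proteases that cleave Notch differed in direction, with ADAM10 falling by 1.07 ± 0.10 and PSEN2, a presenilin, rising by 0.34 ± 0.04 at 1 of 3 probe sets. Notch gene counts became 5 up without scramble array 3 and 5 up under median centring.

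Antigen presentation genes were lower with shco2. Of 16 MHC class I and peptide loading genes, 8 fell (50%) and 0 rose in limma (0 at an unadjusted p under 0.05), with a median of -0.41. ERAP1, which trims peptides in the endoplasmic reticulum, read 436, 527 and 533 with scramble and 198, 261 and 231 with shco2 and fell by 1.12 ± 0.13 (adjusted p = 0.00230), with 1 of 5 probe sets called. HLA-B fell by 0.59 ± 0.12 and HLA-C by 0.54 ± 0.09. These class I genes are near-identical in sequence, so their probe sets may share signal. Class I gene counts became 4 down without scramble array 1 or shco2 array 2 and 5 down without shco2 array 3. Of 13 MHC class II genes, 4 fell and 0 rose (0 at an unadjusted p under 0.05). HLA-DRA, an MHC class II chain, read 174, 271 and 251 with scramble and 14.6, 39.5 and 44.4 with shco2 and fell by 2.91 ± 0.53 (adjusted p = 0.0105), or by 1.83 with the floor at 64. The peptide exchange chain HLA-DMA read 423, 477 and 512 with scramble and 165, 202 and 168 with shco2 and fell by 1.40 ± 0.21. The invariant chain CD74 read 2211, 2542 and 2482 with scramble and 1335, 1275 and 1260.2 with shco2 and fell by 0.90 ± 0.11. With shco4 HLA-DRA, HLA-DMA and CD74 lay 1.26, 0.39 and 1.17 from scramble, and the differences of shco4 minus shco2 were 4.17, 1.79 and 2.07 (adjusted p = 0.00151, 0.00115 and 8.63e-05).

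Interferon-stimulated genes did not move as one. Of 38, 5 rose (13.2%), 7 fell (18.4%) and 26 did not pass. RSAD2, the antiviral protein viperin, read 106, 89.7 and 109 with scramble and 410.1, 346 and 387 with shco2 and rose by 1.91 ± 0.18 (adjusted p = 0.00124). XAF1, a pro-apoptotic factor, fell by 1.49 ± 0.19 and IRF1, a transcription factor of the interferon response, by 0.74 ± 0.05. Interferon gene counts became 2 up without scramble array 2, 3 up without shco2 array 1 or 3, 12 down with the trended variance and 13 down without dim probe sets. Of 25 NF-kB genes, 3 rose and 6 fell. The subunit NFKB1 rose by 0.70 ± 0.06 and the kinase CHUK by 0.78 ± 0.10, while the subunit RELA fell by 0.49 ± 0.06 and CFLAR, which holds back caspase 8, by 0.81 ± 0.05. Of 147 interleukins, chemokines, TNF family ligands and their receptors, of which 34 had a mean log2 intensity of 7 or more, 6 rose (4.08%) and 9 fell (6.12%). Cytokine gene counts became 3 up without scramble array 2 or shco2 array 3, 4 down without scramble array 2 or shco2 array 2, 5 down without scramble array 3 or shco2 array 1 and 11 up on the log2 of the value plus 16. IL6, a cytokine of inflammation, read 457, 500.3 and 683 with scramble and 1175, 1161 and 1193 with shco2 and rose by 1.13 ± 0.15 (adjusted p = 0.00367). OSMR, the oncostatin M receptor, fell by 0.84 ± 0.10. Of 22 complement and coagulation genes, 4 rose and 6 fell. PLAUR, the urokinase receptor, rose by 0.74 ± 0.10, and PLAT, tissue-type plasminogen activator, which dissolves clots, fell by 1.75 ± 0.34. Coagulation gene counts became 2 up without scramble array 2 or shco2 array 3, 1 down without shco2 array 1, 2 down without scramble array 1 or 2 or shco2 array 3 and 3 down without scramble array 3 or shco2 array 2 or shco4 array 2.

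**Figure D3:**
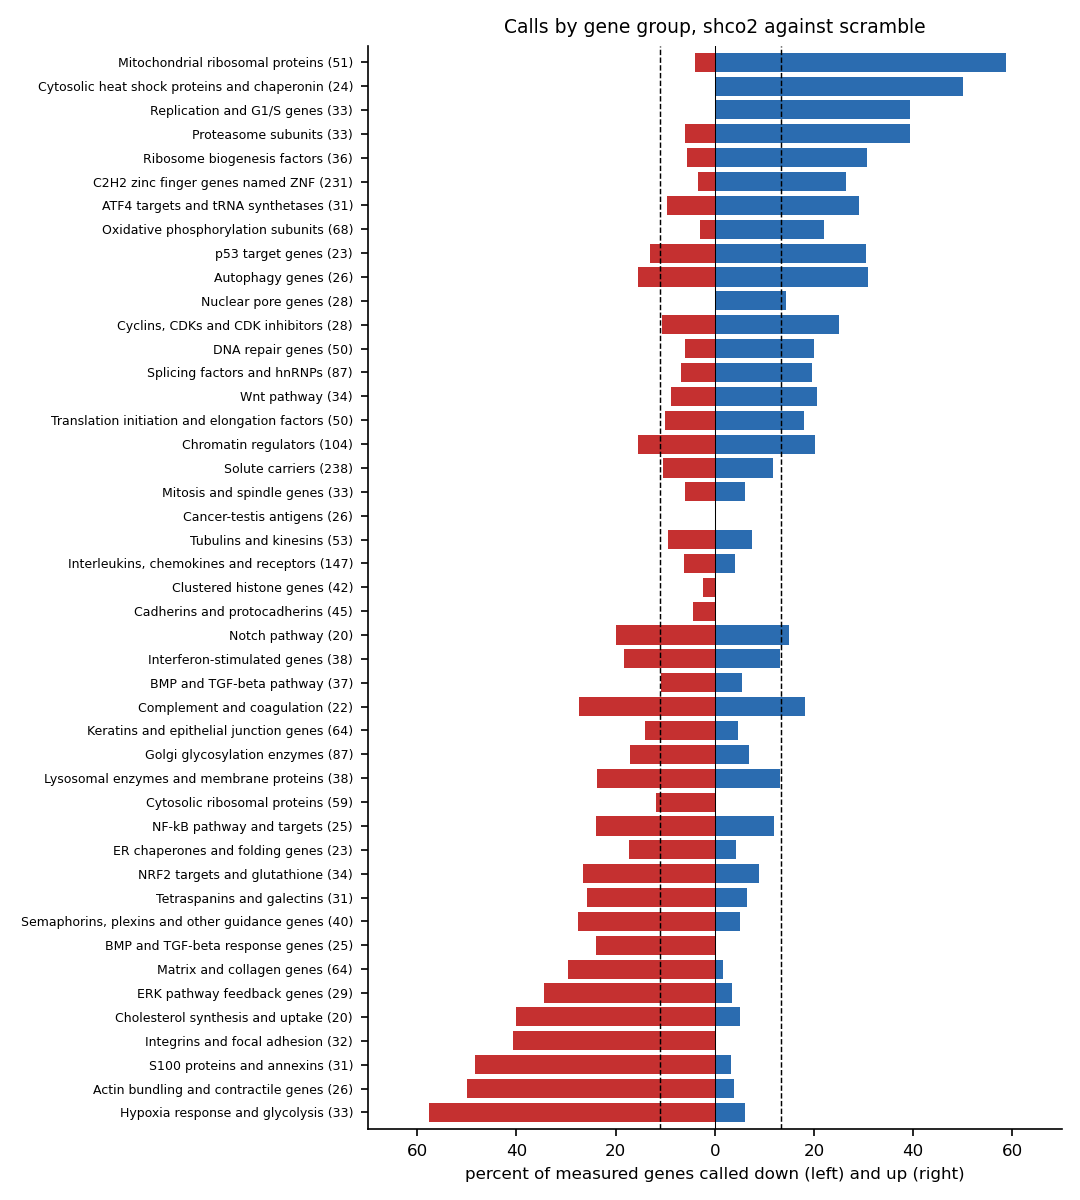
Share of measured genes called up (blue, to the right) and down (red, to the left) at an adjusted p under 0.05 in the 45 gene groups with at least 20 measured genes (cell type marker lists left out), ordered by the up share minus the down share, with the number measured beside each name. Dashed lines mark the shares over all 11963 genes, 13.3% up and 11% down. Mitochondrial ribosomal proteins stand at the top with 58.8% up, and the hypoxia and glycolysis group at the bottom with 57.6% down.

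Genes of the contractile cytoskeleton were lower. Of 26 actin bundling and contractile genes, 13 fell (50%) and 1, the smooth muscle actin ACTA2, rose, with a median of -0.49. CAPG, which caps actin filaments, read 3174, 2570.5 and 2876 with scramble and 1332, 1441 and 1572 with shco2 and fell by 0.99 ± 0.10 (adjusted p = 0.00140). MYH10, a non-muscle myosin chain, fell by 0.87 ± 0.08, ACTN4, an actin crosslinker, by 0.56 ± 0.05, and TAGLN2, a transgelin, by 0.94 ± 0.10. ACTA2 read 83.6, 71.7 and 86.7 with scramble and 335, 266 and 322 with shco2 and rose by 1.93 ± 0.21 at 1 of 2 probe sets. The cytoplasmic actin ACTB differed by -0.16 ± 0.06 and did not pass, except without shco2 array 1 (adjusted p = 0.0387). Actin gene counts became 2 up without scramble array 2 and 2 up without dim probe sets or with the trended variance. Of 32 integrins and focal adhesion genes, 13 fell (40.6%) and 0 rose (0 at an unadjusted p under 0.05). VCL, vinculin, which ties integrins to actin, read 5664, 6052 and 6029.7 with scramble and 1732, 2153 and 2330.2 with shco2 and fell by 1.52 ± 0.12 at 1 of 2 probe sets. CAV1, caveolin, read 10093, 8685 and 9670.0 with scramble and 3452, 3709.8 and 3848 with shco2 and fell by 1.37 ± 0.07, and the integrin chains ITGA3 and ITGA6 fell by 1.37 ± 0.08 and 1.81 ± 0.10.

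S100 proteins, which are small calcium-binding proteins, and annexins, which bind membranes in the presence of calcium, were lower. Of 31 measured, 15 fell (48.4%) and 1 rose, with a median of -0.34. The member that rose, S100PBP, is a binding partner of S100P and shares only the name. S100A2 read 2893, 2966 and 2869 with scramble and 504, 646 and 633 with shco2 and fell by 2.30 ± 0.17 (adjusted p = 0.000536). S100A4, a protein tied to cell motility, read 11442, 10869 and 10710.5 with scramble and 4086, 5100.0 and 4760.4 with shco2 and fell by 1.25 ± 0.08 (adjusted p = 0.000351). The arrays of each group lay close together in S100A4, and S100A2 spread more among the shco2 arrays. S100A11 fell by 0.34 ± 0.03 and ANXA6 by 0.86 ± 0.08. In the shco4 line S100A4 lay 0.20 from scramble and S100A2 -1.14. The differences of shco4 minus shco2 were 1.45 and 1.16 (adjusted p = 9.09e-05 and 0.00303). S100 and annexin gene counts became 0 up without scramble array 1 or 2 or shco2 array 2 or 3 and 0 up on the 6 arrays alone.

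Most S100 genes lie side by side on chromosome 1. When the genes with a mean log2 intensity of 7 or more were placed in chromosome order, 7 runs of at least 5 neighbours were all called in the same direction, 5 down and 2 up. The longest held 10 genes, S100A10, S100A11, FLG, S100A6, S100A5, S100A4, S100A3, S100A2, S100A13 and CHTOP, which fell by 0.25 to 2.30. FLG, filaggrin, a protein of the skin barrier, read 559, 473 and 369 with scramble and 105, 142 and 99.9 with shco2 and fell by 2.01 ± 0.26 (adjusted p = 0.00322). S100A7, S100A8, S100A9 and S100A12, which lie in the same cluster, were at or near the floor in both groups and take no part in the run. A second run of 7 neighbours on chromosome 20 held the cystatins CST4, CST1, CST2 and CST7, inhibitors of cysteine proteases, followed by APMAP, ENTPD6 and PYGB. CST1 read 748, 835 and 992 with scramble and 324, 230.3 and 332 with shco2 and fell by 1.55 ± 0.27. The keratins KRT7, KRT8 and KRT18 opened a run of 6 on chromosome 12. AKR1C1, AKR1C2 and AKR1C3, aldo-keto reductases that act on steroids, stood within a run of 5 on chromosome 10. Cystatins and AKR1C genes are close paralogs, and the keratins are related genes. Some of these probe sets (CST2, AKR1C1 and AKR1C2) are of a design that can bind related transcripts, so neighbouring calls are not independent. With single arrays left out, 7 of the 10 genes of the S100 run kept their calls each time, 6 of the 7 of the cystatin run, 5 of the 6 of the keratin run and 4 of the 5 of the AKR1C run. The remaining runs kept fewer, with 3 of 5 genes in each. They begin with ABHD4 (down), PFDN2 (up) and ZNF331 (up). The runs, and FLG and CST1 as examples, were picked after their values were seen and have no test.

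**Figure D4:**
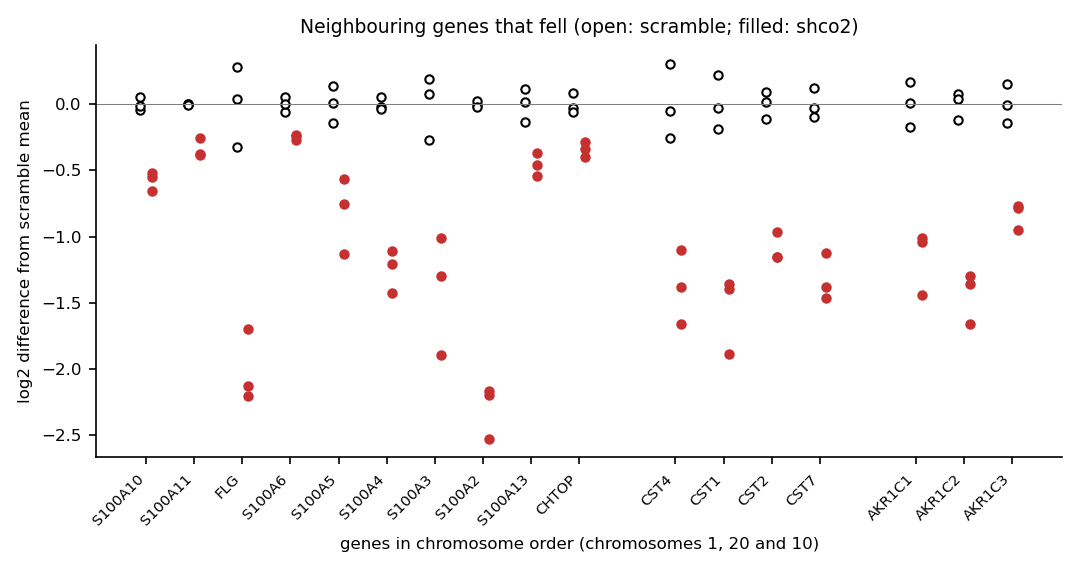
Log2 difference of each array from the scramble mean for the 10 neighbouring genes of the S100 run, the 4 cystatins and the 3 AKR1C genes, in chromosome order along the x axis with no distances shown. Open circles are the 3 scramble arrays and filled circles the 3 shco2 arrays. In each of the 17 genes the shco2 arrays lie below the scramble arrays, by most in S100A2 and FLG and by least in S100A6.

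The promoters of S100A2 and S100A3 both hold the AP-1 motif TGANTCA, which FOS and JUN proteins bind, and are shown because these genes fell most among the S100 genes of the run. The 250 bases before each start are given 5′ to 3′ in the direction of the gene, from RefSeq on GRCh38.p14, with the motif in capitals.
S100A2, chr1:153565845-153566094, minus strand: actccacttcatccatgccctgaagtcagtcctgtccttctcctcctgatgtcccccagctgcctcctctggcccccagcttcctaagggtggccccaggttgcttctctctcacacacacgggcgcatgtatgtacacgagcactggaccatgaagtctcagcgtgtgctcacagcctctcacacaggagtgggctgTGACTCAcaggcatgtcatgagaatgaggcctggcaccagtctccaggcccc
S100A3, chr1:153549259-153549508, minus strand: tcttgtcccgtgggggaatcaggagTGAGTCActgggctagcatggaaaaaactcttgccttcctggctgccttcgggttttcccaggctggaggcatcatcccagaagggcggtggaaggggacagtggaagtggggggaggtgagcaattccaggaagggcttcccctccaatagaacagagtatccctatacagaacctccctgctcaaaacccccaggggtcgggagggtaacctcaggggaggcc
The windows searched ran from 250 bases before to 50 after the start, on both strands, and 9562 of the 11963 genes had one. The motif was found in 5.43% of all windows, in 7.10% of the 310 of genes that fell at least 2-fold and in 6.98% of the 172 of genes that rose at least 2-fold. A CCAAT box (CCAAT) was found in 29% of the windows of genes that fell at least 2-fold, 40.7% of those that rose and 37.3% of all. The GC content of the windows was 65.7% and 64.5% at the median, against 64% over all. These shares are descriptions, and a match is not a bound site.

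Genes of glycolysis and of the hypoxia response fell more often than they rose. Of 33 measured, 19 fell (57.6%) and 2 rose, with a median of -0.41, and 13 to 18 fell with each array left out in turn. PKM, pyruvate kinase, read 10479.6, 9915 and 9149 with scramble and 6036, 5349.9 and 5066 with shco2 and fell by 0.85 ± 0.08 (adjusted p = 0.00123). TPI1, triosephosphate isomerase, fell by 0.51 ± 0.05 and PGAM1, phosphoglycerate mutase, by 0.39 ± 0.04. NDRG1, a stress-induced gene of the hypoxia response, read 3578, 2751 and 3767 with scramble and 1051, 961 and 1206 with shco2 and fell by 1.64 ± 0.15. The groups lay far apart in NDRG1 and did not overlap in PKM. VEGFA, the angiogenic factor, read 2218, 2005 and 2640.4 with scramble and 979.6, 1103 and 1146 with shco2 and fell by 1.08 ± 0.19 (adjusted p = 0.00962), at all 4 of its probe sets. The members that rose were ADM, the peptide adrenomedullin (1.04 ± 0.11), and EGLN1, an oxygen-sensing prolyl hydroxylase (0.46 ± 0.09), whose call was lost when scramble replicate 2 was left out (adjusted p = 0.0521). Hypoxia gene counts became 1 up without scramble array 2.

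The core of the hypoxia motif, ACGTG, which HIF recognises within its elements, was found in 13 of 30 windows of this group with a sequence (43.3%), in 24.8% of all, in 28.4% of those of bright genes and in 19.7% of those of genes that fell at least 2-fold. GC content was 69.7% at the median in the windows of this group, against 64% over all. Other motifs were also more frequent in them, such as E2F (23.3% against 9.51% of all) and NF-kB (90% against 69.8%). The AP-1 motif (3.33% against 5.43%), the CCAAT box (30% against 37.3%) and the SRF motif (0% against 1.28%) were less frequent. Whether the excess is particular to the hypoxia motif was not tested. Of the 13 genes with the hypoxia motif, 7 fell, 1 rose and 5 were not called. Those of ALDOC, an aldolase, of PGK1, phosphoglycerate kinase, and of DDIT4, an inhibitor of mTORC1, are shown because all 3 genes fell and hold the motif in the 250 bases before the start. Capitals mark the motif on either strand.
ALDOC, chr17:28576896-28577145, minus strand: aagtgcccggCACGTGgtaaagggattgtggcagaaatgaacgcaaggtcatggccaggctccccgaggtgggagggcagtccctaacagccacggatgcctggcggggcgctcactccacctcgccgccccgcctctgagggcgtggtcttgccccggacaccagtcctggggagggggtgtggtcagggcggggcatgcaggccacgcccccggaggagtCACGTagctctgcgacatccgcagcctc
PGK1, chrX:78103998-78104247, plus strand: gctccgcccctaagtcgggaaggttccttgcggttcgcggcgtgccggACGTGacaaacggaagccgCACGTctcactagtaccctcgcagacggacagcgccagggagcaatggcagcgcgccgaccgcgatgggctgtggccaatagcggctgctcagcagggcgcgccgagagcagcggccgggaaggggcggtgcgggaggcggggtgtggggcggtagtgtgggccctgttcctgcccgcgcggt
DDIT4, chr10:72273674-72273923, plus strand: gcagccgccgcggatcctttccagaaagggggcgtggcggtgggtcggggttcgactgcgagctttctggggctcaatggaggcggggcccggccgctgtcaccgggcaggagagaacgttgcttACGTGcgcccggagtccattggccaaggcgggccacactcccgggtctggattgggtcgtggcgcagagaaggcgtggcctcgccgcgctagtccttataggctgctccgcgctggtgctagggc
ALDOC read 237, 142 and 225 with scramble and 76.4, 74.3 and 102 with shco2 and fell by 1.23 ± 0.23. PGK1 read 9908, 9141 and 9033 with scramble and 7668, 7512 and 7593 with shco2 and fell by 0.30 ± 0.04, a smaller and more precise change. DDIT4 read 4540.1, 4299.6 and 3646 with scramble and 1795, 2439.6 and 1319.7 with shco2 and fell by 1.21 ± 0.23. VEGFA and these 3 genes were chosen after their values were seen.

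Lipid genes were lower in part. Of 20 cholesterol synthesis and uptake genes, 8 fell (40%) and 1 rose, and of 18 genes of fatty acid synthesis and lipid storage, 5 fell (27.8%) and 0 rose (1 at an unadjusted p under 0.05). SREBF2, the transcription factor that drives cholesterol synthesis, read 382, 298 and 379 with scramble and 226, 214 and 178 with shco2 and fell by 0.78 ± 0.13. LSS, lanosterol synthase, fell by 0.99 ± 0.15 at 1 of 3 probe sets and PMVK, a mevalonate pathway kinase, by 0.50 ± 0.08. ACSL5 and ACSL1, which activate fatty acids, fell by 0.82 ± 0.12 and 0.62 ± 0.07. Fatty acid gene counts became 1 up without shco4 array 1 and 1 up on the log2 of the value plus 16 or without dim probe sets or without floored probe sets or with the trended variance or on the 6 arrays alone. The difference of shco4 minus shco2 in SREBF2 was 2.00 (adjusted p = 0.000149). Cholesterol gene counts became 0 up without scramble array 1 or shco2 array 1 or 2 or shco4 array 2 or 3, 4 down without shco2 array 1 or 2, 5 down without scramble array 1 or 3 or shco2 array 3, 0 up under quantile normalization or on the log2 of the value plus 16 or on the 6 arrays alone, 2 up without dim probe sets or without floored probe sets or with the trended variance and 5 down on the 6 arrays alone.

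Enzymes that build sugar chains in the Golgi fell more often than they rose. Of 87, 15 fell (17.2%) and 6 rose (6.9%), and 44 had a mean log2 intensity of 7 or more. GALNT10 and GALNT12, which start O-glycans, fell by 1.49 ± 0.10 and 1.35 ± 0.10. FUT8, which adds core fucose to N-glycans, read 1134, 1295 and 1472 with scramble and 468, 526 and 490.2 with shco2 and fell by 1.39 ± 0.10 (adjusted p = 0.000521). CHST15, a chondroitin sulfotransferase, read 1977, 1834 and 1919.7 with scramble and 662, 633 and 763 with shco2 and fell by 1.48 ± 0.08. In both FUT8 and CHST15 the groups did not overlap. Golgi enzyme counts became 3 up without scramble array 3.

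Of 38 lysosomal genes, 9 fell (23.7%) and 5 rose (13.2%). GM2A, an activator of ganglioside breakdown, fell by 1.28 ± 0.14 and NPC2, which carries cholesterol out of the lysosome, by 0.44 ± 0.03, while ATP6V0D1, a subunit of the proton pump, rose by 0.48 ± 0.06. LAPTM5, a lysosomal membrane protein named for its expression in blood cells, read 1814, 1824 and 1831 with scramble and 313, 599.9 and 418 with shco2 and fell by 2.09 ± 0.23, while PTPRC lay near the floor. Lysosomal gene counts became 5 down without shco2 array 3. Of 34 NRF2 target and glutathione genes, 9 fell (26.5%) and 3 rose. TXNRD1, thioredoxin reductase, fell by 0.91 ± 0.06 and AKR1C2 and AKR1C3 by 1.44 ± 0.15 and 0.83 ± 0.09, whereas the factor NFE2L2 (NRF2) itself rose by 0.41 ± 0.04. Solute carriers stood near the background, with 28 of 238 up (11.8%) and 25 down (10.5%). Of 8 metallothioneins, metal-binding proteins, 0 passed in limma (0 at an unadjusted p under 0.05). Metallothionein counts became 1 down without scramble array 2 or shco2 array 1.

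Against these decreases, genes of mitochondrial protein synthesis rose. Of 51 mitochondrial ribosomal proteins, 30 rose (58.8%) and 2 fell, with a median of 0.40, and 20 to 29 rose with each array left out in turn. MRPL17 read 1565, 1423 and 1425 with scramble and 2703, 2808 and 2672 with shco2 and rose by 0.89 ± 0.05 (adjusted p = 0.000212). MRPL18 read 1562, 1559 and 1646 with scramble and 2474, 2327 and 2496 with shco2 and rose by 0.61 ± 0.04, and MRPS15, of the small subunit, read 893, 877 and 920.5 with scramble and 1296, 1304 and 1424 with shco2 and rose by 0.58 ± 0.05. In all 3 the shco2 arrays lay above the scramble arrays. The members that fell were MRPL48, which read 1019.7, 991 and 969.8 with scramble and 521, 484 and 542 with shco2 (-0.95 ± 0.05), and MRPL49 (-0.43 ± 0.04). Subunits of oxidative phosphorylation moved less: 15 of 68 rose (22.1%) and 2 fell, with a median of 0.08. NDUFA7 and NDUFC1, of complex I, rose by 0.65 ± 0.08 and 0.52 ± 0.07, and COX4I1, of complex IV, fell by 0.55 ± 0.03. The share of 22.1% is close to the 21.7% of all bright genes. Oxidative phosphorylation counts became 1 down without scramble array 1 or 3 or shco2 array 2 or 3, 9 up on the log2 of the value plus 16 and 1 down on the log2 of the value plus 16.

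**Figure D5:**
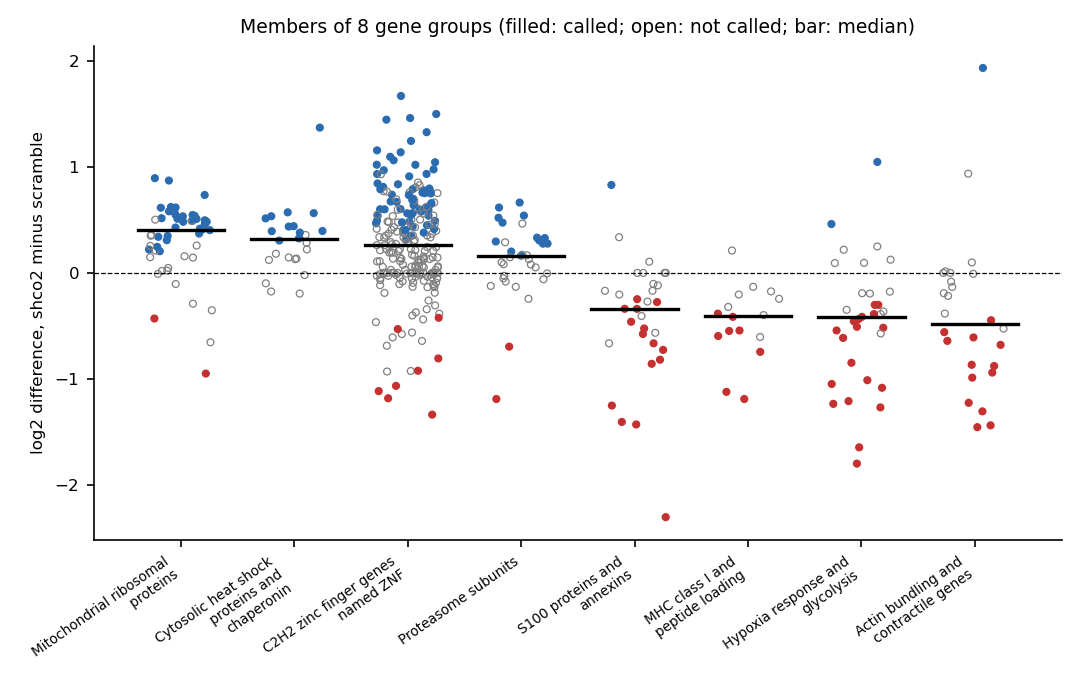
Log2 difference of shco2 minus scramble for every measured member of 8 gene groups (1 point per gene at its brightest probe set), filled where called at an adjusted p under 0.05 and open where not. Horizontal bars mark the group medians, from 0.40 for mitochondrial ribosomal proteins to -0.49 for actin bundling and contractile genes, and the dashed line is 0, the median over all genes.

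Cytosolic chaperones rose as well. Of 24 heat shock proteins, chaperonin subunits and cofactors, 12 rose (50%) and 0 fell in limma (0 at an unadjusted p under 0.05), with a median of 0.31 and 8 to 12 up with each array left out in turn. CCT2, a subunit of the chaperonin that folds actin and tubulin, read 5267, 5432 and 5120.4 with scramble and 6691, 6416 and 6435 with shco2 and rose by 0.31 ± 0.05 (adjusted p = 0.00527). HSPB8, a small heat shock protein, read 185, 211 and 230.0 with scramble and 548, 519 and 543 with shco2 and rose by 1.37 ± 0.14 (adjusted p = 0.00134). HSPH1, a nucleotide exchange factor of HSP70, rose by 0.56 ± 0.08. The counts read only the brightest probe set of each gene. HSPA4, an HSP70 family chaperone, was called up at its brighter probe sets (0.39 and 0.50) but down at a dimmer one (-1.28). The change was small and precise in CCT2 and larger in HSPB8.

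Proteasome subunits rose in 13 of 33 cases (39.4%) and fell in 2. PSMD12, PSMD4 and PSMD8, of the regulatory particle, rose by 0.52 ± 0.04, 0.31 ± 0.03 and 0.33 ± 0.04. PSMA4, of the core ring, fell by 0.69 ± 0.05, and so did the immunoproteasome subunit PSMB10 (-1.19 ± 0.23), which also stands in the MHC class I group. The PSMB10 call was lost in 3 of the 9 leave-one-array-out fits, most of all without shco2 replicate 3 (adjusted p = 0.0524). Proteasome gene counts became 1 down without scramble array 1 or shco2 array 2 or 3 and 8 up on the log2 of the value plus 16. Of 36 ribosome biogenesis factors, 11 rose (30.6%) and 2 fell. BRIX1, which assembles the large subunit, read 277, 409.6 and 363 with scramble and 679, 835 and 705 with shco2 and rose by 1.09 ± 0.18. GNL2, a nucleolar GTPase, rose by 0.62 ± 0.06. Ribosome biogenesis gene counts became 5 up without shco2 array 3, 7 up without scramble array 3 or shco2 array 1, 1 down without any 1 scramble or shco2 array or shco4 array 1 or 2 and 1 down with the floor at 64. The cytosolic ribosomal proteins themselves gave 0 up in limma (1 at an unadjusted p under 0.05) and 7 down of 59 (11.9%), with a median of -0.07, or 0.02 after quantile normalization. Cytosolic ribosomal gene counts became 1 up without shco4 array 2, 4 down without any 1 scramble array or shco2 array 2 or 3, 1 up on the 6 arrays alone, 4 up under quantile normalization, 2 down under median centring or on the log2 of the value plus 16 or without dim probe sets or without floored probe sets and 4 down under quantile normalization.

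Of 31 ATF4 targets and tRNA synthetases, 9 rose (29%) and 3 fell. CEBPG, a partner of ATF4, rose by 0.93 ± 0.13 and PPP1R15A, the phosphatase subunit GADD34, by 0.996 ± 0.15, while the tryptophanyl-tRNA synthetase WARS1 fell by 0.79 ± 0.13. ATF4 gene counts became 4 up without scramble array 1 or any 1 shco2 array. EIF2AK3, the kinase PERK that phosphorylates eIF2, read 141, 178 and 227 with scramble and 419.7, 488 and 500.1 with shco2 and rose by 1.39 ± 0.18 (adjusted p = 0.00337). In the group of 50 translation factors that holds it by name, 9 rose and 5 fell. EIF2S3, a subunit of eIF2, fell by 1.24 ± 0.12, and EIF1AX, an initiation factor, by 1.12 ± 0.13, at all 4 of its probe sets. Translation factor counts became 3 up without scramble array 3 or shco2 array 1, 4 up without shco2 array 3, 5 up without scramble array 1 or shco2 array 2, 3 up on the log2 of the value plus 16 or without floored probe sets and 8 down on the 6 arrays alone.

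In the nucleus the most numerous change was among C2H2 zinc finger genes, many of them DNA-binding repressors of the KRAB family. Of 231 genes named ZNF, 61 rose (26.4%) and 8 fell (3.46%), with a median of 0.26, and 43 to 59 rose with each array left out. The 136 with a mean log2 intensity of 7 or more hold 61 of the 69 calls in either direction. ZNF146 read 1491, 1573 and 1483 with scramble and 2586, 2633 and 2630.0 with shco2 and rose by 0.79 ± 0.03 (adjusted p = 9.49e-05). ZNF430 read 244, 269 and 248 with scramble and 518, 507 and 515 with shco2 and rose by 1.02 ± 0.05, and ZNF184 read 152, 157 and 154 with scramble and 286, 304 and 319.9 with shco2 and rose by 0.97 ± 0.05. Each had its shco2 arrays above all scramble arrays. Many ZNF genes are close paralogs in clusters on chromosome 19, where 118 of 442 bright genes rose (26.7%) and 40 fell (9.05%), against 21.7% and 17.1% of bright genes on all chromosomes. Zinc finger gene counts became 5 down without shco2 array 2.

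Other nuclear groups had calls both ways, near or under the shares of bright genes. Of 104 chromatin regulators, 84 of them bright, 21 rose (20.2%) and 16 fell (15.4%). Of all bright genes 21.7% rose and 17.1% fell. BRD7, a bromodomain subunit of PBAF, rose by 0.86 ± 0.07 and SMARCA5, a remodelling ATPase, by 0.55 ± 0.05 at 1 of 3 probe sets. HDAC3, a histone deacetylase, read 928, 882 and 969 with scramble and 520.1, 526 and 551 with shco2 and fell by 0.80 ± 0.05 (adjusted p = 0.000223), and ARID5B, a partner of histone demethylases, fell by 1.18 ± 0.08. Chromatin gene counts became 9 up without scramble array 3 or shco2 array 1 or 2, 10 up without scramble array 1 and 11 up without scramble array 2 or shco2 array 3. Of 87 splicing factors and hnRNPs, 83 of them bright, 17 rose (19.5%) and 6 fell (6.9%), both under the shares of bright genes. RBM8A, a core protein of the exon junction complex, read 640.3, 802 and 787 with scramble and 211, 235 and 299.7 with shco2 and fell by 1.59 ± 0.16 (adjusted p = 0.00139), at all 4 of its probe sets. Splicing gene counts became 26 up with the trended variance.

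Of 33 replication and G1/S genes 13 rose (39.4%) and 0 fell in limma (0 at an unadjusted p under 0.05), with a median of 0.46. PRIM1, the DNA primase, rose by 0.81 ± 0.13, and the chromatin assembly factor subunits CHAF1A and CHAF1B by 0.75 ± 0.12 and 0.60 ± 0.10. Replication gene counts became 4 up without scramble array 1 or shco2 array 3, 6 up without shco2 array 1 or 2, 7 up without scramble array 3 and 8 up without scramble array 2. Of 28 cyclins, CDKs and inhibitors, 7 rose and 3 fell. CDK4 rose by 0.43 ± 0.05 and its partner CCND3 by 0.64 ± 0.09, while RB1, the retinoblastoma protein, read 498, 512 and 617 with scramble and 199, 274 and 293 with shco2 and fell by 1.10 ± 0.16 (adjusted p = 0.00493), with 1 of 2 probe sets called. Cyclin and CDK gene counts became 3 up without shco2 array 2, 4 up without shco2 array 1 and 1 down without scramble array 3. Of 50 DNA repair genes, 49 of them bright, 10 rose (20%) and 3 fell (6%), both under the shares of bright genes (21.7% and 17.1%). XRCC5, the Ku80 subunit that binds DNA ends, rose by 0.43 ± 0.04, while the glycosylase OGG1 fell by 0.81 ± 0.10. DNA repair gene counts became 6 up without shco2 array 3.

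MDA-MB-231 cells are known to carry a mutant p53. Of 23 p53 target genes, 7 rose (30.4%) and 3 fell. CDKN1A, the CDK inhibitor p21, read 979, 907 and 964 with scramble and 1597, 1405 and 1362 with shco2 and rose by 0.61 ± 0.11 (adjusted p = 0.0107). SAT1, a polyamine acetyltransferase, read 1358, 1337 and 2014 with scramble and 2989, 4237 and 3793 with shco2 and rose by 1.24 ± 0.21, at all 3 of its probe sets. MDM2, the ligase that degrades p53, rose by 1.74 ± 0.31 at its brightest probe set, or by 1.09 with the floor at 64, and 3 of its 5 probe sets were called. The kinase PLK2 fell by 0.55 ± 0.07. Target gene counts became 1 down without scramble array 1 or 2 or any 1 shco2 array. Of 19 BCL2 family genes, 2 rose and 3 fell. The killer protein BIK rose by 1.32 ± 0.20, and the survival protein BCL2L1 fell by 0.61 ± 0.11 at 1 of 3 probe sets. Family counts became 1 down without scramble array 1 or 3 or shco2 array 1 or shco4 array 1 and 4 up without dim probe sets. Of 26 cancer-testis antigens, which adult tissues outside the testis hardly express and of which 2 were bright, 0 passed in limma (0 at an unadjusted p under 0.05). Antigen counts became 1 down without scramble array 1.

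Surface proteins and cell type markers fell in part. Of 31 tetraspanins and galectins, 8 fell and 2 rose. TSPAN8, a tetraspanin, read 376, 326 and 429 with scramble and 112, 92.2 and 142 with shco2 and fell by 1.72 ± 0.19 (adjusted p = 0.00179). LGALS1, galectin 1, fell by 0.35 ± 0.05 and the tetraspanin CD9 by 0.45 ± 0.06. Tetraspanin and galectin gene counts became 1 up without scramble array 3 or shco2 array 1 or 3, 5 down without scramble array 3 or shco2 array 1 or 3, 1 up with the floor at 64 or without dim probe sets or on the 6 arrays alone and 5 down on the 6 arrays alone. DSG2, a desmosomal cadherin, read 1199, 1035 and 1305 with scramble and 278, 283 and 322 with shco2 and fell by 2.00 ± 0.10 (adjusted p = 0.000180). Of 12 markers of basal MDA-MB-231 cells, 9 fell and 1 rose. The cortical linker MSN, moesin, fell by 1.20 ± 0.09, and VIM and CD44 by 0.32 ± 0.04 and 0.52 ± 0.06. Of 16 luminal markers 7 fell and 0 rose (0 at an unadjusted p under 0.05). KRT19, a keratin, fell by 1.19 ± 0.11. Luminal marker counts became 4 down without scramble array 2 or 3.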

How the data were processed

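Total RNA had been hybridised to Affymetrix 3' expression arrays. The deposited values are 1 intensity per probe set and array on a linear scale, and their mean after trimming 2% of probe sets from each end was 500.1 on every array, so the authors' scaling is read from the values. The software is not given in the sources used here. Values under 16 were set to 16 and taken to log2, and 62 control probe sets were left out. Group means were fitted to all 9 arrays with limma 3.58.1 in R 4.3.3 (lmFit, eBayes), with shco2 minus scramble as the contrast and Benjamini-Hochberg adjustment over 22215 probe sets. The fit was also run on simulated data with independent normal noise. Such data hold no deviations shared between arrays, so the run cannot show how these affect the calls. Errors beside log2 differences are standard errors with n = 3 per group. Of the probe sets, 19064 carry 1 symbol, 1043 several and 2108 none, and 2611 (11.8%) lay at the floor on all arrays. Each gene was read from its brightest probe set with 1 symbol.

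The gene groups were chosen with earlier results of these data known. Some gene groups are not reported here. Named genes were drawn from 262 that met a rule. Not all of the 262 are described, and some of those with the largest changes are left out. The rule started from called genes whose arrays did not overlap and whose brighter group had a mean log2 intensity of 7 or more. From these it took the 20 with the largest rise and the 20 with the largest fall. It also took the 8 in each direction with the smallest adjusted p. Each group added up to 4 called members with the smallest p and the only called member of a direction. ID1, ID2, ID3, SMAD6, SMAD7, BAMBI, MYC, CDKN1A and ACTB were taken whatever their values. FST, ACVR1, ADM, EGLN1, MRPL49, VIM, CD44, VEGFA, ALDOC, PGK1, DDIT4, FLG and CST1 lie outside that rule and were added after their values were seen. Alternatives tried were 2 normalizations, 2 floors, 2 filters, another variance model, fewer arrays, a replicate block and each array left out.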

Additional observations from a re-analysis of the deposited data

Results flagged for a closer look

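Among the genes described above, 28 were called against scramble in opposite directions with the 2 Coco hairpins, and shco4 and shco2 also differed from each other in limma, a contrast into which the scramble arrays enter only through the estimate of spread. Over all genes, shco4 and shco2 differed in 35.4%, a share that does not ask for calls against scramble. The share of all genes called in opposite directions was not counted, so whether 28 is many cannot be read. Both hairpins' differences from scramble share the 3 scramble arrays, and the values below are the tested log2 differences of shco4 minus shco2.

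The values at the surface and in signalling were as follows. PLCXD1 differed by -2.95, with 1.54 for shco2 and -1.41 for shco4 against scramble. For IL11 the difference was -4.26 (2.02 and -2.23). STX6 differed by 2.65 (-1.82 and 0.83) and GGCT by -1.47 (0.93 and -0.55). PLXNA1 differed by 2.22 (-1.25 and 0.96), SPRY2 by 0.82 (-0.56 and 0.26) and PLAUR by -1.60 (0.74 and -0.86). CD44 differed by 0.88 (-0.52 and 0.36) and FLG by 3.05 (-2.01 and 1.04).

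Immune genes with such a difference were RSAD2 at -2.63 (1.91 and -0.72), CD74 at 2.07 (-0.90 and 1.17), HLA-C at 0.96 (-0.54 and 0.42), IRF1 at 0.96 (-0.74 and 0.22) and RELA at 0.71 (-0.49 and 0.21). Metabolic genes were SREBF2 at 2.00 (-0.78 and 1.22), GALNT12 at 1.92 (-1.35 and 0.57) and NPC2 at 0.71 (-0.44 and 0.27).

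Mitochondrial and protein quality genes were MRPL17 at -1.19 (0.89 and -0.30), NDUFC1 at -2.16 (0.52 and -1.64), COX4I1 at 0.72 (-0.55 and 0.17), HSPH1 at -1.11 (0.56 and -0.54) and PSMA4 at 0.98 (-0.69 and 0.28). Cell cycle genes were PRIM1 at -1.74 (0.81 and -0.93), CHAF1A at -1.22 (0.75 and -0.47), CHAF1B at -1.44 (0.60 and -0.84) and CDK4 at -0.81 (0.43 and -0.38). CDKN1A stood at -1.32 (0.61 and -0.71) and PLK2 at 0.89 (-0.55 and 0.34).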

How the results depend on the processing

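The number of called probe sets stayed within 1.5 times of 4589 in every alternative run: 4597 after quantile normalization, 4829 after median centring, 4120 with a floor of 64, 4493 on the log2 of the value plus 16, 5093 and 4769 with dim or floored probe sets left out, 5226 with a trended and robust variance and 4342 with the 6 scramble and shco2 arrays alone. Leaving out 1 array gave 3258 to 4602 calls in all, 1606 to 2382 up and 1652 to 2220 down. A similar total does not mean the same calls. Of the 4589 probe sets, 3140 to 4177 were still called with 1 array left out. On the 6 scramble and shco2 arrays alone 3790 were, and after quantile normalization 4354. Of 3432 values of the 191 genes described, recomputed under these settings, 3352 kept their direction and side of the threshold, 70 lost the call, 5 gained it and 5 changed sign. The changes of sign were in genes that were not called: ID3 ranged from -0.12 to 0.51 with single arrays left out, and MYC was 0.0071 after median centring and -0.090 to 0.11 with single arrays left out. The causes were not tested.

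With the replicate number as a block, 5345 probe sets were called, 2805 up and 2540 down, of which 4151 were among the 4589, and among the genes described ID1 passed (adjusted p = 0.0158), RAB3A (adjusted p = 0.0586), MS4A1 (0.0664) and FST (0.0503) lost their calls and no other call changed. Deviations from the group means of same-numbered scramble and shco2 arrays correlated at 0.289, 0.0567 and 0.254 across probe sets. The best match of every array was its own number (0.0449 at most with another), so same-numbered arrays shared part of their deviations. The labels do not say whether same-numbered arrays were handled together. The main fit leaves the number out, so deviations shared by number count as spread in it. Only 3 arrays per group limit the precision, and intensities near the floor carry no order.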
